A study of Mus musculus with 12 samples.

Results

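This comparison set the brightest EGFP gate of a liver sort against the dimmest EGFP-positive gate, in mice whose green fluorescence reports on Sox9. Its members were chosen by level and not by response: genes whose normalised counts in the deposited table averaged 10 or more across its 12 columns, which were 16128 of 54227 listed genes. The samples were liver cells of C57Bl/6 mice that all carried the Sox9EGFP transgene, fasted for 16 h before digestion of the liver, and no treatment, age or sex is given. Cells were sorted into 4 gates of rising EGFP, here neg, sub, low and high (GFPneg, GFPsublow, GFPlow and GFPhigh in the labels), with 12000 cells per population and 3 libraries per gate. The 3 high and 3 sub libraries form the comparison, and the low and neg libraries enter the same fit and stand beside the results. A gate is a window of fluorescence and not a purified cell type, and a transgene can be active outside the cells that express the endogenous gene. The labels do not state that the 3 libraries of a gate came from separate animals, so p-values measure the spread between these libraries, which may be technical.

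SOX9 is a transcription factor of the bile duct epithelium, and its expression marks cholangiocytes and progenitor-like cells along the ducts. Cholangiocytes carry keratins, osteopontin and a primary cilium, and modify bile as it leaves the hepatocytes. The sinusoids that run between hepatocyte plates are lined by fenestrated endothelial cells with scavenger receptors, and hepatic stellate cells and portal fibroblasts behind that lining make collagen and other matrix proteins. A sort of digested liver can therefore meet all of these cells, and each has genes that the others lack.

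Endogenous Sox9 was nearly absent from neg and present in the 3 EGFP gates. Its normalised count (the deposited value, a read count divided by one factor per library) was 0.691, 0 and 0 in neg replicates 1, 2 and 3, 6653, 4237 and 3707 in sub, 8838, 10313 and 17140.4 in low and 11794, 13969 and 13497 in high. All 3 high libraries stood above all 3 sub libraries, and low overlapped high. The fitted log2 fold change of Sox9 between high and sub, on log2(normalised count + 1), was 1.47 ± 0.76 (standard error), with a limma adjusted p of 0.523, so the difference did not pass the threshold of 0.05. Both gates also held the other defining biliary transcripts: Spp1, which encodes osteopontin, was at 13719, 8527 and 7705 in sub and 27254, 28249 and 36557 in high, and Epcam, an epithelial adhesion molecule, at 3748, 592 and 1534 and 4921, 4212 and 3487.

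The libraries held 9872316 to 15251585 recovered reads in sub and 10934801 to 13856809 in high, and 9039 to 10691 genes above 0 in sub against 9729 to 11957 in high. Malat1 took 7.59 ± 0.276% of the normalised counts in sub and 6.95 ± 0.51% in high (mean ± SD, n = 3), and the mitochondrial ribosomal RNAs 5.25 ± 0.268% and 5.68 ± 0.447%. Many genes were seen in one library of a gate and absent from another: 5396 genes in sub and 4294 in high had both a 0 and a value of at least 100 among the 3 libraries. The median standard error of the log2 fold change was 2.35, and a gene that missed the threshold is not shown to be equal in the gates.

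**Figure D1:**
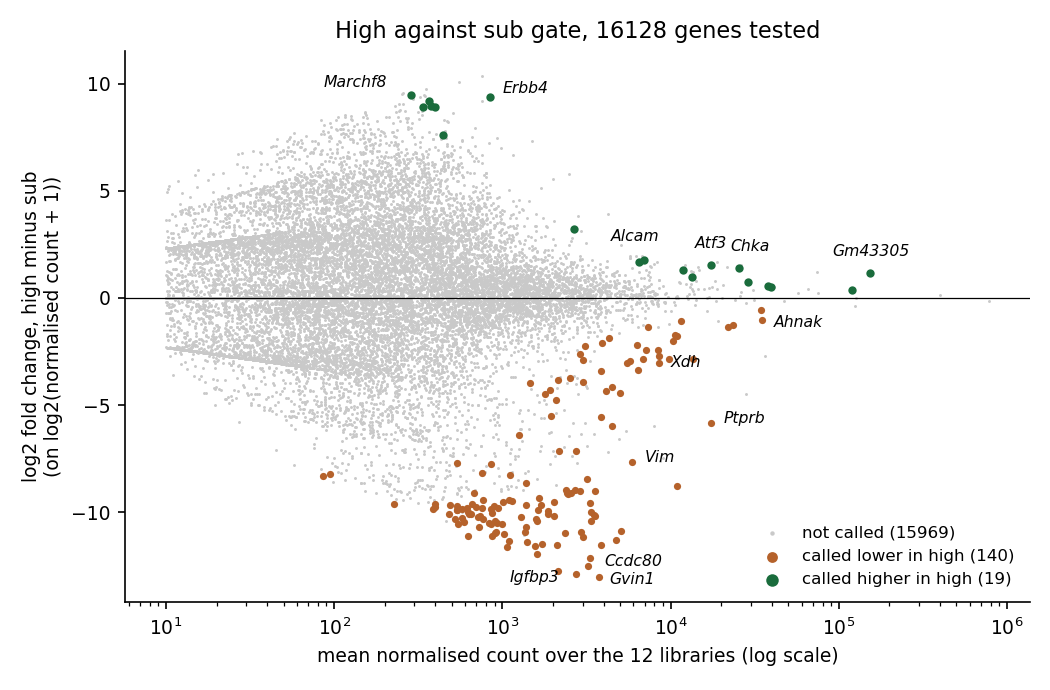
Each point is 1 of the 16128 genes tested; the x axis is the mean normalised count over the 12 libraries on a log scale and the y axis the fitted log2 fold change, high minus sub. The 140 genes called lower in high (brown) reach much larger changes than most of the 19 called higher (green).

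Between high and sub, limma called 159 of 16128 genes at an adjusted p under 0.05, which is 0.986% of the genes tested. Of these, 19 were higher in high (0.118%) and 140 were lower (0.868%). The skew towards falls did not hold for all genes: 8591 genes were fitted higher and 6405 lower, the median log2 fold change was 0.20, and 897 of the 1653 genes with an unadjusted p under 0.05 were higher. The 3 high libraries stood wholly above the 3 sub libraries in 1161 genes (7.20%) and wholly below in 953 (5.91%). No called gene overlapped between the gates. Here and below, called, rose and fell refer to limma unless a count test is named. Counts of called list members are to be read against the shares of all genes that limma called, 0.118% higher and 0.868% lower. On 12 libraries edgeR called 26 genes higher and 201 lower among all genes, and DESeq2 766 and 719. The counts of those tests in each list are to be read against these totals. DESeq2 gave some genes no adjusted p, among them Cdh5, Kdr, Stab2, Mrc1, Acta2 and Nrp1, and these count as not called. Of the 140 falls, 68 had at most 3 reads in every high library, and 57 of them had 0 in all 3. Of the 19 rises, 6 had at most 3 reads in every sub library. For such genes the fold change is a lower bound, computed against 3 reads in the library where a read was worth most.

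Among the 19 genes that rose, Chka, Atf3 and the long transcript Gm43305 were read in every library. Chka encodes choline kinase alpha, which starts phosphatidylcholine synthesis by the Kennedy pathway. Its normalised counts were 18126, 17166 and 17084 in sub and 43656, 43109 and 51527 in high, a rise of 2.64-fold (log2 fold change 1.40 ± 0.14, adjusted p 2.8e-05). No high library overlapped a sub library, and low lay in between at 30885, 33668 and 34841.

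Atf3, a stress-induced transcription factor of the ATF/CREB family, measured 16279.5, 8384 and 11786 in sub and 36297, 32550.3 and 34226 in high. The rise was 2.83-fold, with a log2 fold change of 1.55 ± 0.20 and an adjusted p of 0.000541. The low libraries, at 21046, 19279 and 22120.2, again stood between the gates without overlap with either. Gm43305, an annotated processed transcript on the minus strand of chromosome 14 at 54292443 to 54297456 (GENCODE M21, GRCm38), was at 137761, 109330 and 79717 in sub and 230713, 248809 and 232329 in high, 2.18-fold higher, with an adjusted p of 0.000286. Its neg libraries held 3832, 4973 and 3567, far below every other gate. Chka, Atf3 and Gm43305 were called in each of the 12 fits that left out 1 library and in both count tests (edgeR and DESeq2 on recovered reads). A limma fit of the 6 high and sub libraries alone called none of the 19 rises, Chka, Atf3 and Gm43305 included.

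**Figure D2:**
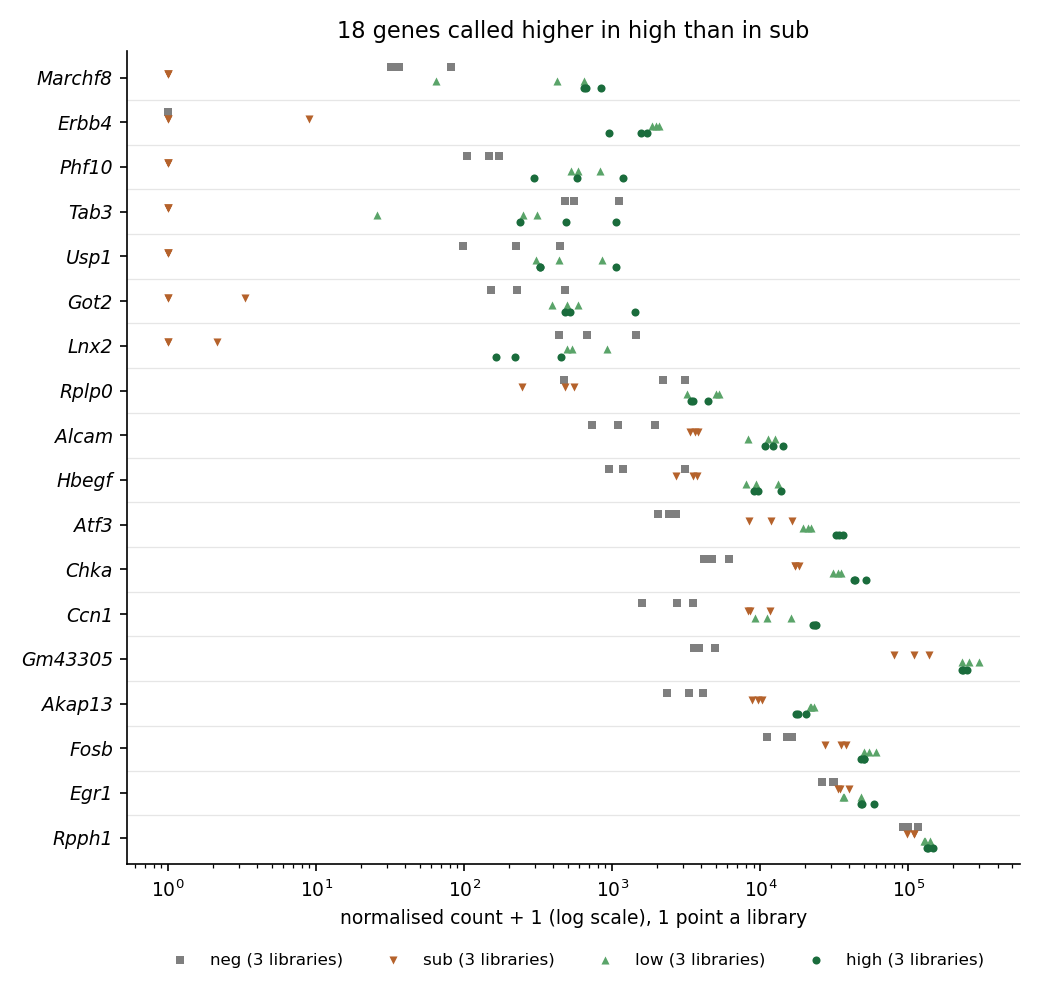
Normalised count + 1 of 18 genes called higher in high, on a log axis, with 1 point per library in neg, sub, low and high. Marchf8, Phf10, Tab3 and Usp1 sit at 1 in all 3 sub libraries, that is, no read, while the genes from Rplp0 downwards are present in every gate.

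A second set of 7 rises was at or near 0 in sub. Erbb4, a receptor tyrosine kinase of the EGF receptor family that binds neuregulins, was listed at 0 in each library in neg and 0, 0 and 7.98 in sub, against 1973, 2081 and 1849 in low and 954, 1566 and 1702 in high. It was higher in high than in sub (fitted log2 fold change 9.36 ± 2.12, adjusted p 0.0382). It lost the call without high replicate 3 (adjusted p 0.0516) and with replicate number as a block. It was thus nearly confined to the low and high libraries among the 12.

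The other 6 were found in neg and low as well. Marchf8, a membrane-bound ubiquitin ligase, had no read in sub, 644, 659 and 839.6 in high and 35.2, 80.7 and 30.9 in neg, at least 208-fold higher in high than in sub (adjusted p 0.0346). Phf10, a subunit of the PBAF chromatin remodelling complex, had none in sub and 295, 573 and 1188 in high, a rise of at least 199-fold (adjusted p 0.0232). Usp1, a deubiquitinase of DNA repair, likewise had none in sub and 323, 1064 and 322 in high, at least 166-fold higher (adjusted p 0.0293). Every high library held each of these 3 genes. Tab3, an adaptor of the TAK1 kinase, rose at least 173-fold (adjusted p 0.0346), Got2, the mitochondrial aspartate aminotransferase, at least 235-fold (adjusted p 0.0222) and Lnx2, a ubiquitin ligase that binds Numb, at least 80.7-fold (adjusted p 0.0432). These 6 genes had at most 3 reads in each sub library and more in every library of the other gates, and all were called in each of the 12 fits that left out a library. The count tests were less even: edgeR did not call Marchf8, Got2 or Lnx2. A fit with replicate number as a block lost the calls of Marchf8, Tab3 and Lnx2.

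Alcam and Hbegf were present in every gate and rose. Alcam, an adhesion molecule of the immunoglobulin family, was at 3599, 3775 and 3342 in sub and 12119.7, 14289 and 10785 in high, 3.47-fold higher (log2 fold change 1.79 ± 0.35, adjusted p 0.0175). Hbegf, which encodes heparin-binding EGF-like growth factor, a ligand of EGFR and ERBB4, was at 3759, 3497 and 2699 and 9682, 8999.9 and 13844, 3.27-fold higher (adjusted p 0.0451). Neither gene overlapped between the gates, and low overlapped high in Hbegf and in part in Alcam, at 12509, 11288 and 8230.3 for Alcam and 8033, 13183 and 9398 for Hbegf. The call of Alcam was lost in 6 of 12 fits that left out a library, with an adjusted p of up to 0.0979, and that of Hbegf in 11, with an adjusted p of up to 0.252, while both count tests called both genes.

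Of the 14 ERBB receptors and ligands listed, 8 were tested. Of these, Erbb4 and Hbegf rose, where 0.118% of all genes did, and none fell. Erbb3, the receptor that signals through a partner, was at 385, 589.6 and 469.8 in sub and 2971, 3036 and 1391 in high without overlap, with an adjusted p of 0.68. Egfr, at 152, 0 and 958 and 388, 48.5 and 469.6, overlapped between the gates. Wholly above sub were 3 of the 8, where 7.20% of all genes were. The median log2 fold change of the 8 tested members was 2.14, against 0.20 for all genes.

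Stress-induced and other abundant transcripts gave the smaller rises. Fosb and Egr1, immediate early transcription factors, were at 37995, 27271 and 35252 and 34447, 33431 and 39529 in sub and 49794, 50279 and 47843 and 48409.5, 47853 and 58305 in high, rises of 1.47-fold and 1.44-fold (adjusted p 0.0387 and 0.0249). Akap13, an anchoring protein of protein kinase A, rose 1.94-fold (adjusted p 0.0246). Rpph1, the RNA of ribonuclease P, rose 1.31-fold (adjusted p 0.00365). These were small, without overlap like every called gene, and the calls were unstable. EdgeR called Fosb, Egr1 and Rpph1 (adjusted p 0.0242, 0.014 and 0.000629) and DESeq2 did not (0.378, 0.374 and 0.545). Fosb lost the call in all 12 fits that left out a library (adjusted p of up to 0.335), Egr1 in 11 (up to 0.247), and Akap13 and Rpph1 in 8 each (up to 0.127 and 0.149).

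Of the 19 immediate early genes on the list, Atf3, Fosb and Egr1 rose, where 0.118% of all genes did, and none fell. The median log2 fold change of the 19 was 0.45. Jun, at 34749, 30245 and 42327 in sub and 45911, 49684 and 49739 in high, did not overlap between gates but missed the threshold (adjusted p 0.0531). Klf4, a zinc-finger factor also made by endothelium, was on the other side, at 9126, 6836 and 10540.1 and 2241, 3148 and 5643 (adjusted p 0.0562). Within the list 7 members stood wholly above (7.20% of all genes) and 3 wholly below (5.91%). DESeq2 called 1 of the 19, Atf3. Rplp0, a ribosomal stalk protein, was 8.93-fold higher (adjusted p 0.0265; lost in 8 of 12 fits that left out a library, up to 0.125), but 35% of its 31-base words are shared with Gm8730, and the sum of the pair, 4113 ± 1757 in sub and 4757 ± 1125 in high, overlapped. It was the only 1 of 82 cytosolic ribosomal protein genes tested that limma called, where 0.986% of all genes were called.

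Ccn1, a matricellular protein and a classic target of the co-activators YAP and TAZ, rose as well. It was at 8453, 8307 and 11588 in sub and 22781, 23924 and 23267 in high, 2.47-fold higher (log2 fold change 1.32 ± 0.27, adjusted p 0.0243), and low, at 11123, 9242 and 16216, stayed below every high library. The call was lost in 9 of the 12 fits that left out a library, with an adjusted p of up to 0.176, and kept by edgeR (0.00635) and DESeq2 (0.0278). Of the other targets, Ankrd1, an ankyrin-repeat target of the same pathway, was at 1548, 2664 and 1901 in sub and 5305, 5721 and 7026 in high without overlap (adjusted p 0.685 in limma, 0.392 in edgeR and 0.0426 in DESeq2), and Ccn2, the closest relative of Ccn1, was on the other side without overlap, at 4072, 4974 and 3627 and 1279.8, 632 and 766 (adjusted p 0.685). Of 19 YAP and TAZ targets tested, limma and edgeR called Ccn1 alone, and DESeq2 called Ccn1 and Ankrd1 higher and Crim1 lower (0.00653). Among all genes limma called 0.118% higher, edgeR 26 higher, and DESeq2 766 higher and 719 lower. Wholly above sub were 3 members (7.20% of all genes) and wholly below 2 (5.91%). The list's median log2 fold change was 0.23, close to the 0.20 of all genes.

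YAP and TAZ reach DNA through TEAD factors, whose core motif is GGAATG, so the 250 bases before the start of these genes are shown for Ccn1 and Ankrd1, both wholly above sub (RefSeq, GRCm38.p6). Matches to GGAATG on either strand are in capitals. The Ccn1 window is on the minus strand at chr3:145649986-145650235 and holds 1 match, and the Ankrd1 window on the minus strand at chr19:36119845-36120094 holds 2.
Ccn1: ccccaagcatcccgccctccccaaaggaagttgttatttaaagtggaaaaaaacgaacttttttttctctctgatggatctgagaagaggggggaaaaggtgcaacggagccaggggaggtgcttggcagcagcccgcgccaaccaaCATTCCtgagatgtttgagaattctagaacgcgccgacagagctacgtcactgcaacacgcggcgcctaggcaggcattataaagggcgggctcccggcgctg
Ankrd1: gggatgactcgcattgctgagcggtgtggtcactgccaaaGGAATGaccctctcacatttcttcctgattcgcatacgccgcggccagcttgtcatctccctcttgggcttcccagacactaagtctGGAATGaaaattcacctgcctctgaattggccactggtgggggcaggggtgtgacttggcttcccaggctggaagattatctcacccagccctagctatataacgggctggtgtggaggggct
Such matches are common. GGAATG occurred in the 250-base window of 13.1% of the 10621 tested genes with a promoter in the table, in 1 of the 14 called rises with one and in 21 of 107 called falls (19.6%). The AP-1 motif TGANTCA, to which FOS and JUN proteins bind, occurred in 6% of all windows, in 0 of 14 rises and in 6 of 107 falls (5.61%).

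Of the biliary epithelial genes limma called none, although their summed level was higher in every high library. Of 19 tested members, 18 were fitted higher, 11 were wholly above sub (7.20% of all genes) and none wholly below, with a median log2 fold change of 1.47. The summed normalised count of all 20 listed members was 69474, 52280.1 and 45010.3 in sub and 145120, 150657 and 145308 in high, 2.64-fold higher, and 158835, 164035 and 170584 in low. Every sub library was below every high library, and the low libraries were the highest. In bulk libraries of this kind, fewer cells of a type and less RNA per cell cannot be told apart.

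The keratins of simple epithelia were among the separated genes. Krt8 was at 16648, 15117 and 15713 in sub and 45340.2, 50992 and 43439 in high (adjusted p 0.685), and Krt18, the partner of Krt8, at 10410.3, 10498 and 6227 and 20360.1, 22300.2 and 19899.6 (adjusted p 0.758). Krt19, a duct-restricted keratin, was the exception, at 3828, 709.8 and 846 in sub and 1415, 449 and 485 in high, overlapping, although low held 6631, 4936 and 5819.8. Cdh1, which encodes E-cadherin, was at 7884, 2118 and 3635 and 13403, 13973 and 10677 without overlap (adjusted p 0.407), and Onecut1, a biliary and hepatic transcription factor, at 194, 0 and 0 and 1457, 818 and 2425 (adjusted p 0.134). Limma called none of the 19, with 4 at an unadjusted p under 0.05, whereas edgeR called Spp1 (adjusted p 1.06e-05) and Cdh1 (0.0223), and DESeq2 called 2 members, with Spp1 at 0.00511 and Sox9 at 0.0391.

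Lists of duct function held fewer separated genes, to be read against the 7.20% of all genes that stood wholly above sub. Pkhd1, the fibrocystin gene of recessive polycystic disease, was at 6179, 5720 and 3754 in sub and 11167, 13154 and 11654 in high, 2.3-fold higher by means without overlap (adjusted p 0.652). It was one of 2 of the 15 cilium and polycystic disease genes wholly above sub, and none was wholly below. Among 18 tight junction and polarity genes 6 were wholly above, including Ocln, which encodes occludin, at 1047, 504 and 884 and 2379, 2914 and 3790.4 (adjusted p 0.681). Of 13 ion, water and bile transport genes 2 were wholly above, and Aqp1, a water channel also found in endothelium, was wholly below at 2327, 3746 and 2441 in sub and 0, 58.6 and 632 in high (adjusted p 0.196). Limma called none of these 46 genes and had 4 at an unadjusted p under 0.05; edgeR called none and DESeq2 2.

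Hepatocyte transcripts were low in neg and present in both EGFP gates compared here. Alb, the albumin gene, was at 4133, 1302 and 5182 in sub and 10123, 13040.5 and 12616 in high (adjusted p 0.682), and Ahsg, which encodes fetuin-A, at 938, 1286 and 1643 and 5018, 5118 and 5667 (adjusted p 0.549). Both were wholly above sub. Hnf4a, the hepatocyte nuclear receptor, overlapped at 264, 1594 and 0 and 282, 741 and 1352. The 15 listed hepatocyte genes summed to 11138, 8771 and 11521 in sub and 22070, 26529 and 26192 in high, 2.38-fold higher. Of the 14 tested, limma and edgeR called none. In limma 1 had an unadjusted p under 0.05 and was lower, and DESeq2 called 1 higher.

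**Figure D3:**
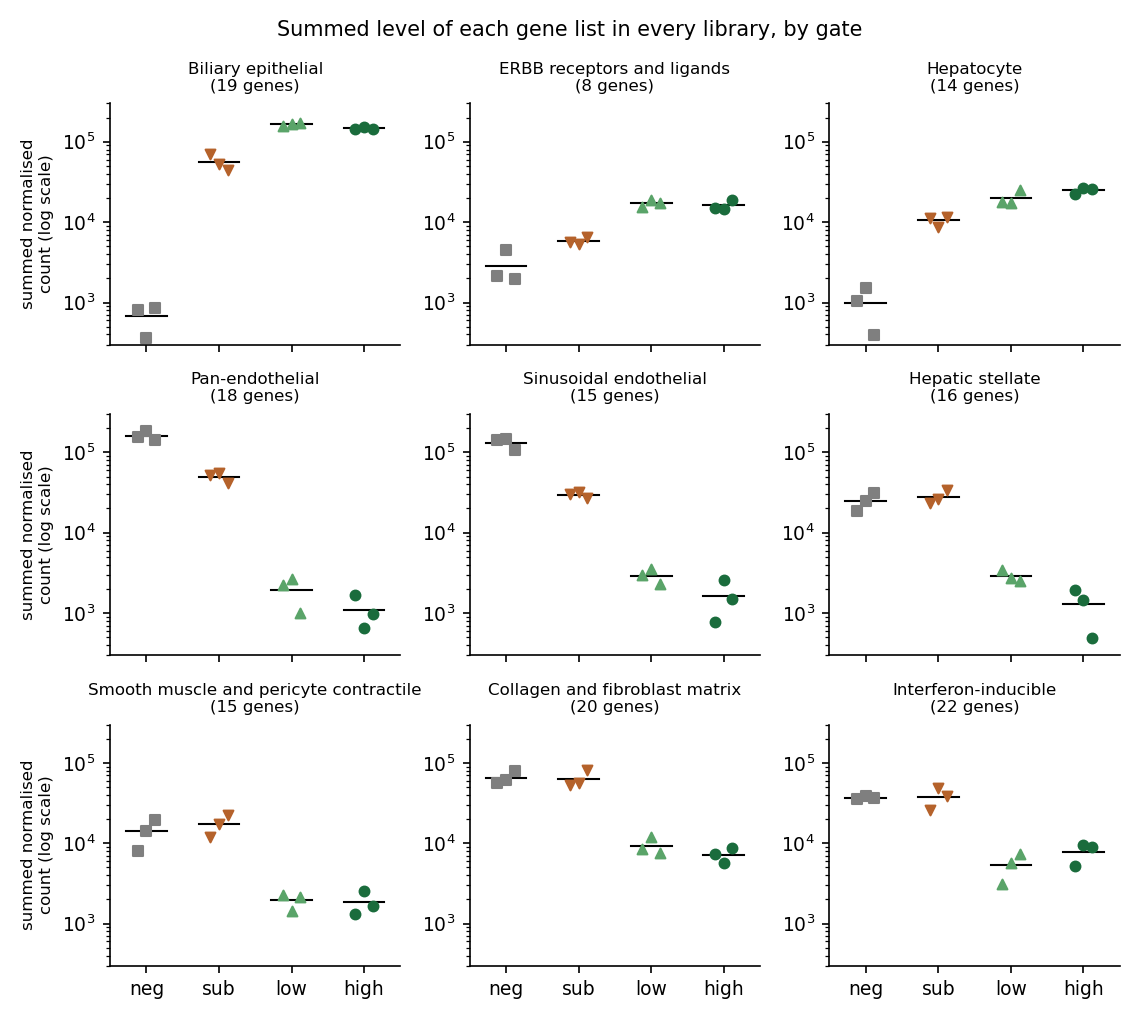
Summed normalised count of 9 gene lists in each of the 12 libraries, on a log axis, with a bar at the mean of each gate. Panel titles give the number of members tested, and the sums take in every listed member. The biliary sum is 2.64 times higher in high than in sub, and the pan-endothelial, stellate and collagen sums are 45.3, 21.4 and 8.74 times lower.

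The 140 falls included many genes of vessel lining and of matrix-making cells. Of the 140, 12 belonged to the pan-endothelial or sinusoidal lists and 21 to the stellate, smooth muscle, collagen or matricellular lists, and 97 were in no list. In 138 of the 140 the mean of low was also below that of sub, and in 83 the mean of neg was above that of sub. Fold changes ran from 1.5 for Ahnak to at least 3207 for Gvin1, and 117 of the 140 fell by at least 8-fold.

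Of 18 pan-endothelial genes 10 fell, where 0.868% of all genes did. Ptprb, which encodes the endothelial phosphatase VE-PTP, was at 13539, 16196 and 9314 in sub and 621, 218 and 76 in high, 42.7-fold lower (log2 fold change -5.86 ± 0.62, adjusted p 5.69e-05). Pecam1, the CD31 adhesion molecule, was at 5059, 9150.1 and 6398 and 707, 359.8 and 111, 17.5-fold lower (adjusted p 0.00114). The sub and high libraries of both genes were far apart. Eng, a co-receptor for TGF-beta and BMP ligands, had 2704, 1103 and 2359 in sub and no read in high, at least 678-fold lower (adjusted p 0.00623), and Erg, an ETS factor of endothelium, 1059, 758 and 1259.8 and none, at least 338-fold lower (adjusted p 0.0312). These 4 were called in all 12 fits that left out a library.

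None of the 18 rose, and 13 were wholly below sub, against 5.91% of all genes, with a median log2 fold change of -8.16. Flt1, a VEGF receptor, fell at least 1596-fold (adjusted p 0.00386), Cdh5, which encodes VE-cadherin, 256-fold (adjusted p 0.0134) and Robo4, a guidance receptor of vessels, at least 423-fold (adjusted p 0.0346). Each of these 3 lost the call in 1 fit, without sub replicate 2, at adjusted p 0.0568, 0.0613 and 0.0543. Tek and Tie1, the angiopoietin receptors, were at 2743, 3042 and 2442 and 1818, 1215 and 1191 in sub and 0, 0 and 7.35 and 6.06, 0 and 0 in high (adjusted p 0.0138 and 0.0354). Egfl7, a secreted vessel protein, fell 209-fold (adjusted p 0.0498). Tek, Tie1 and Egfl7 lost the call in 8, 3 and 8 of the 12 fits (adjusted p of up to 0.104, 0.0723 and 0.164). Kdr, the main VEGF receptor, missed the threshold in limma at 5968, 6798 and 5009 in sub and 88.3, 0 and 321 in high (adjusted p 0.0575). The summed level of the 18 genes was 52117, 55897 and 41624 in sub, 1677, 646 and 982 in high and 154372, 182932 and 143560 in neg. Sub thus held 45.3 times the high level and stayed below every neg library.

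Of 15 genes of sinusoidal endothelium 2 fell (0.868% of all genes). Stab1, the scavenger receptor stabilin-1, was at 3364, 3829.7 and 6038 in sub and 0.865, 5.05 and 0 in high (fitted log2 fold change -10.89 ± 1.42, adjusted p 0.000527). Ehd3, an endocytic recycling protein of sinusoidal cells, was at 3463, 4827 and 2774 and 0, 2.02 and 0, at least 1216-fold lower (adjusted p 0.00253). Both were called in all 12 fits that left out a library. Stab2, the second stabilin, was wholly below sub at 5013, 7516 and 4188 in sub and 0.865, 159.7 and 96.4 in high but missed the threshold (adjusted p 0.0588), and Mrc1, the mannose receptor, was at 4902, 3210.3 and 3790.3 and 92.6, 1.01 and 350.4 (adjusted p 0.133). Limma called 2 of 15 members and edgeR 8, all lower, and 8 were wholly below sub (5.91% of all genes).

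**Figure D4:**
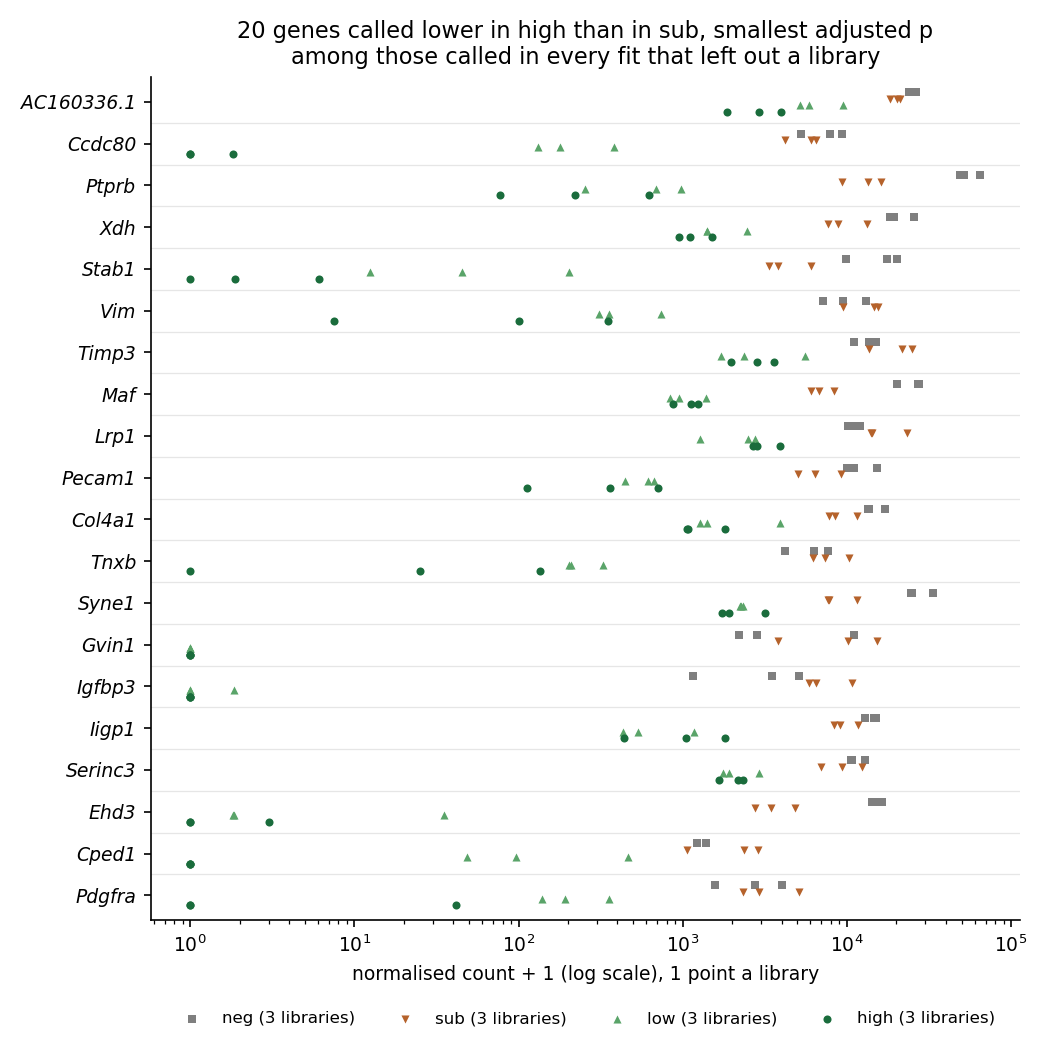
Normalised count + 1 on a log axis, 1 point per library, of the 20 genes with the smallest adjusted p among those called lower in high and called in every fit that left out a library. In each row the 3 sub libraries lie to the right of the 3 high libraries.

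Of 16 hepatic stellate genes 5 fell, where 0.868% of all genes did, and 11 were wholly below sub, where 5.91% were. EdgeR called 8 and DESeq2 12, all lower, where they called 201 and 719 of all genes lower. Pdgfrb, the receptor for PDGF-B, had 2602, 1954 and 3487 in sub and no read in high, at least 884-fold lower (log2 fold change -11.35 ± 2.25, adjusted p 0.0196). Col14a1, a fibril-associated collagen, was at 3758, 3562 and 6734 and 10.4, 0 and 0 (adjusted p 0.00717), and Des, the muscle intermediate filament desmin, at 1409.8, 1962 and 2537 and 19.9, 0 and 0 (adjusted p 0.0396). These 3 lost the call without sub replicate 2 (adjusted p 0.0613, 0.0613 and 0.0723) and without sub replicate 3 (0.0552, 0.0625 and 0.0552). Dcn, the proteoglycan decorin, and Nes, the intermediate filament nestin, were the other 2 of 5 calls among 16 tested members, and they lost the call in 10 and 8 of the 12 fits (adjusted p of up to 0.235 and 0.127).

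Besides Pdgfrb, Lrat and Reln are defining stellate genes. Lrat, the enzyme that stores retinol as esters, was at 73, 0 and 68.8 in sub and 0 in each library in high (adjusted p 0.604), and Reln, which encodes reelin, at 4288, 8510.1 and 5201 and 596, 999.5 and 160.1 without overlap (adjusted p 0.131 in limma, 0.0269 in edgeR and 0.00625 in DESeq2). The 18 listed stellate genes summed to 23139.9, 26221 and 33518 in sub, 1911, 1472 and 490 in high and 18769.9, 25121 and 31459 in neg, 21.4 times lower in high than in sub. Of 15 smooth muscle and pericyte genes limma called Des, a fall (0.868% of all genes). EdgeR called Des, Acta2 and Myh11, all lower. DESeq2 called 3 lower and 1 higher, Cnn1, at a log2 fold change of 22.6. For Cnn1 edgeR gave 9.31 and made no call (adjusted p 0.47). Wholly below sub were 7 (5.91% of all genes), among them Myh11, smooth muscle myosin, at 3798, 6124 and 8046 and 245, 0 and 421 (adjusted p 0.164 in limma and 0.0333 in edgeR) and Acta2, smooth muscle actin, at 337, 3104 and 272 and 0 in each library (adjusted p 0.0615 in limma and 0.0175 in edgeR).

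Collagen and fibroblast matrix was the list with most falls by number, ahead of the shorter pan-endothelial list with 10 of 18. Of 20 tested genes, 11 fell (0.868% of all genes), none rose and 16 were wholly below sub (5.91% of all genes), and the median log2 fold change was -7.90. Col3a1, the fibrillar collagen of loose connective tissue, was at 6526, 4121 and 6977 in sub and had no read in high, at least 1938-fold lower (log2 fold change -12.48 ± 2.06, adjusted p 0.00386). Fbn1, fibrillin-1 of microfibrils, was at 2161, 5316 and 3233 and 0.865, 0 and 0, at least 1177-fold lower (adjusted p 0.00789), and Pdgfra, the receptor that marks fibroblasts, at 2331, 2915 and 5102 and 0, 0 and 40.8 (adjusted p 0.00253).

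The basement membrane collagens fell by smaller factors. Col4a1 was at 7748, 8498 and 11596 in sub and 1075, 1799 and 1054 in high, 7.09-fold lower (adjusted p 0.00137), and Col4a2, its partner chain, at 7067, 5182 and 6799.7 and 1582, 1457 and 2132, 3.68-fold lower (adjusted p 0.0354). High libraries thus kept a clear level of each. Col3a1, Fbn1, Pdgfra and Col4a1 were called in all 12 fits that left out a library, and Col4a2 lost the call in 8 (adjusted p of up to 0.108). Of the other called members, Col5a2 and Fbln1 lost the call without sub replicate 2 (adjusted p 0.06 and 0.0613), Eln and Col6a2 without sub replicate 2 (0.0586 and 0.0826) and without sub replicate 3 (0.0525 and 0.0551), Col1a1 in 8 fits (up to 0.117) and Col6a3 in 11 (up to 0.231).

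Col18a1, which encodes the precursor of endostatin, was the member that did not move with the list. It measured 3805, 3529 and 3376 in sub and 3427, 2027 and 4859.5 in high, with a log2 fold change of -0.14 ± 0.48.

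Igfbp3 and Thbs2 were among the 15 largest falls. Igfbp3, the main carrier of circulating IGF, was at 5875, 6497 and 10796 in sub and had no read in any high library, at least 2547-fold lower (log2 fold change -12.86 ± 1.95, adjusted p 0.00207). Thbs2, a matricellular inhibitor of angiogenesis, was at 2832, 5255 and 4111 in sub with no read in high, at least 1341-fold lower (adjusted p 0.00485). Low was at 0 for both genes apart from 0.85 normalised counts of Igfbp3 in 1 library, and both were called in all 12 fits that left out a library. Neg held 1156, 5107 and 3518 of Igfbp3, below every sub library.

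Igfbp4 and Igfbp5 fell 45.3-fold and 19.3-fold (adjusted p 0.0243 and 0.00484) and Sparc, a collagen-binding matricellular protein, 11.4-fold (adjusted p 0.0378). They lost the call in 10, 4 and 10 of the 12 fits (adjusted p of up to 0.177, 0.0779 and 0.188). Thbs1, a relative of Thbs2, was wholly below sub by a small step, at 8376, 4548 and 5119 and 4397, 3616 and 3924 (adjusted p 0.685). Of the 18 matricellular and IGF-binding genes tested, 5 fell (0.868% of all genes), and Ccn1 was the only rise.

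Several of the most secure falls lay outside the lists and were picked out after their values were seen. Ccdc80, a secreted matrix protein, was at 6438, 6052 and 4203 in sub and 0, 0 and 0.817 in high, at least 1835-fold lower (log2 fold change -12.13 ± 1.25, adjusted p 4.59e-05). Vim, the mesenchymal intermediate filament vimentin, was at 9494, 15565 and 14666 and 351, 99 and 6.53, 86.9-fold lower (adjusted p 0.000527). Xdh, xanthine dehydrogenase of purine breakdown, was at 13172, 7703 and 8785 and 1101, 1503 and 943, 8.36-fold lower (adjusted p 0.00017).

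Timp3, an inhibitor of matrix metalloproteinases, Maf, a bZIP transcription factor of sinusoidal endothelium and macrophages, and Lrp1, a large endocytic receptor, fell 7.16-fold, 6.52-fold and 5.44-fold (adjusted p 0.000527, 0.000558 and 0.000558). These kept a level in high: Maf was at 8293, 6062 and 6754 in sub and 877, 1246 and 1116 in high. The gene with the smallest adjusted p of the comparison was AC160336.1, a long intergenic RNA on the minus strand of chromosome 14 at 44544055 to 44637201, at 21199.5, 18410.2 and 20260.4 in sub and 2927, 3959.8 and 1856 in high, 6.85-fold lower (adjusted p 1.72e-05). All 7 of these genes outside the lists (Ccdc80, Vim, Xdh, Timp3, Maf, Lrp1 and AC160336.1) were called in all 12 fits that left out a library.

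The 15 largest falls held 6 further genes outside the gene lists. Ednrb, the endothelin B receptor, had 3548, 2065 and 4071 in sub and none in high, at least 1065-fold lower (adjusted p 0.0101). Plvap, which forms the diaphragms of fenestrae, was at 2473, 3603 and 5205 and 0, 1.01 and 0, at least 1240.2-fold lower (adjusted p 0.00623), and Slc43a3, a purine base transporter, at least 1011-fold lower (adjusted p 0.00628). These 3 were called in all 12 fits that left out a library. Mmrn1, an endothelial multimerin, fell at least 2512-fold, C7, a terminal complement component, at least 1091-fold and Pde2a, a cyclic nucleotide phosphodiesterase, at least 766-fold (adjusted p 0.028, 0.00791 and 0.0122). Mmrn1 lost the call in 10 of 12 fits (adjusted p of up to 0.149), and C7 and Pde2a without sub replicate 2 (0.0741 and 0.0638) and without sub replicate 3 (0.0512 and 0.0566).

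The largest fitted fall of all was Gvin1, a giant GTPase induced by interferon. It was at 3830, 15148 and 10190 in sub and 0 in all low and high libraries, at least 3207-fold lower in high (log2 fold change -13.04 ± 1.94, adjusted p 0.00173). Its neighbour Gm4070 shares 99% of the 31-base words of Gvin1, so reads may be split between them. The sum of both was 13254 ± 1705 in sub and 146 ± 131 in high, without overlap. Iigp1, another interferon-inducible GTPase, was at 8363, 9110.1 and 11713 and 440.4, 1813 and 1044, 8.85-fold lower (adjusted p 0.00207). Of 22 interferon-inducible genes tested limma and edgeR called these 2, both lower, and DESeq2 5 lower. Among all genes limma called 0.868% lower, edgeR 201 and DESeq2 719. Wholly below sub were 8 of the 22 (5.91% of all genes). None of 13 MHC class I and antigen processing genes was called by limma (1 at an unadjusted p under 0.05) or edgeR, and DESeq2 called 1.

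In the signalling lists all limma calls of the VEGF and TGF-beta genes were falls. Flt1, Tek, Tie1 and Eng, called in these lists, are also among the pan-endothelial calls above and are counted again here. Of 14 VEGF and angiopoietin genes 4 fell (Flt1, Tek, Tie1 and Nrp2), where 0.868% of all genes did, and none rose. Wholly below sub were 8 (5.91% of all genes), and edgeR and DESeq2 called 7 each, all lower. Vegfa, the ligand, overlapped between the gates at 3205, 4039 and 1948 in sub and 3779.7, 6755 and 5534 in high (adjusted p 0.585). Nrp2, a co-receptor of VEGF-C, fell 14.3-fold (adjusted p 0.0499) and lost the call in 9 of 12 fits (up to 0.139). In the TGF-beta list of 16, Eng, Tgfbi and Ltbp4 fell (0.868% of all genes). Wholly below sub were 7 members and wholly above 3 (5.91% and 7.20% of all genes), and the median log2 fold change was -2.30. Tgfbi, a matrix protein induced by TGF-beta, was at 427, 1967 and 1884 and 0, 1.01 and 0 (adjusted p 0.0373; 0.0644 without sub replicate 2), and Ltbp4, a latent TGF-beta binding protein, at 5342, 5414 and 1619 and 365, 0 and 0 (adjusted p 0.0114; up to 0.138, lost in 10 of 12 fits). The receptor Tgfbr1 was not called, at 646, 155 and 138 and 1394, 1189.5 and 1223, wholly above sub (adjusted p 0.308).

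Of 14 Notch genes limma called 1, a fall (0.868% of all genes). Wholly below sub were 5 and wholly above 2 (5.91% and 7.20% of all genes), and the median log2 fold change was -1.64. Dll4, the Notch ligand of vessel lining, had 1638, 1384 and 1483 in sub and none in high, at least 495-fold lower (adjusted p 0.0254), and lost the call without sub replicates 2 and 3 in turn (0.0665 and 0.0551). EdgeR also called it alone; DESeq2 gave Dll4 no adjusted p and called Notch4 lower (0.000436). Notch2, the receptor of biliary development, was at 2346, 2862 and 1298 in sub and 4482, 7117 and 3998 in high, and Hes1, a Notch target, at 2704, 412 and 1912 and 3681, 4203 and 4601, both wholly above sub and both short of the threshold (adjusted p 0.761 and 0.387). Of 12 chemokine genes limma called 1, a fall (0.868% of all genes). Wholly below sub were 5 and wholly above 0 (5.91% and 7.20% of all genes). The call was Ccl21a, a lymphatic chemokine, at 1461, 959 and 2477 in sub and no read in high (adjusted p 0.0346). Its adjusted p was 0.0586 without sub replicate 2 and 0.052 without sub replicate 3. Ccl21a shares 80.6% of its 31-base words with Gm21541. EdgeR also called Cxcl12 lower (0.0221), and DESeq2 called 4 lower and Cxcl2 higher (0.0318).

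In 3 falls the neg libraries were at the floor. Gucy1b1, the beta subunit of soluble guanylate cyclase that senses nitric oxide, was at 0.691, 0 and 0 in neg, 961, 368 and 1403 in sub and 0 in all low and high libraries. It fell at least 300.3-fold from sub to high (log2 fold change -9.63 ± 2.04, adjusted p 0.0274). Foxf1, a forkhead factor of mesenchyme, measured 106, 613 and 407 and Col28a1, a minor collagen, 531, 272 and 219 in sub, and both were at 0 in the other 9 libraries. Their falls were at least 124-fold and 112-fold (adjusted p 0.0485 and 0.0424). All 3 genes, Gucy1b1 included, passed the filter on the mean through sub alone, so their p-values and calls lend no support beyond the counts. Under the same filter limma called the 3 in all 12 fits that left out a library, and DESeq2 but not edgeR called them, which likewise lends no support.

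Of 11 genes of nitric oxide and cyclic GMP signalling 7 were wholly below sub, where 5.91% of all genes were. Limma called Gucy1b1 alone (0.868% of all genes fell), and as it passed the filter through sub alone, its call lends the list no support. EdgeR called Nos3, the endothelial nitric oxide synthase, alone (0.00668), and DESeq2 called 5, all lower, Gucy1b1 included. Gucy1a1, the partner subunit of Gucy1b1, was at 679, 1388 and 1163 in sub and 1.73, 26.3 and 4.9 in high but also at 449.8, 246 and 1321 in neg (adjusted p 0.121 in limma, 0.279 in edgeR and 1.96e-06 in DESeq2). The 3 genes at the floor in neg were named after their values were seen.

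At the other end, some abundant genes fell by small steps. Ahnak, a giant scaffold protein, was at 42913, 52621 and 43337 in sub and 30806, 28454 and 33522 in high, 1.5-fold lower (log2 fold change -0.58 ± 0.09, adjusted p 0.00361), and neg, at 21939, 24613 and 25333, was lower still. Utrn, which encodes utrophin, was at 15245, 24784 and 20079 in sub against 7929, 9539.6 and 10497 in high and 8134, 9148 and 8931 in neg (adjusted p 0.0346 for high against sub). Macf1 and Sptbn1, which link actin, microtubules and membrane, fell 2.53-fold and 2.36-fold (adjusted p 0.000691 and 0.0022). Ahnak lost the call in 3 of 12 fits (up to 0.0729, without high replicate 2), Utrn in 10 (up to 0.247), Macf1 in 1 (0.0568, without sub replicate 2) and Sptbn1 in 5 (up to 0.0964), and neither count test called Ahnak or Utrn.

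Hspa1b, an inducible HSP70 chaperone, was at 51599, 37338 and 40508 in sub and 23702, 21433 and 17185 in high, 2.08-fold lower (adjusted p 0.00438), and lost the call in 10 of 12 fits (up to 0.129). Its near-copy Hspa1a was at 29997, 20987 and 14678 and 10177, 8792 and 11222, and the pair summed to 65036 ± 14428 and 30837 ± 2787 without overlap. Of 14 heat shock genes limma called Hspa1b alone, edgeR Hspa1b and Hspa1a (0.0243), both lower, and DESeq2 Hspe1 alone, higher (0.0018), with Hspa1b at 0.0598. Among all genes limma called 0.868% lower, edgeR called 201 lower and DESeq2 766 higher. Hspa8 was at 30519, 26101 and 21553 and 27359.7, 24641 and 29632, and Hsp90ab1 at 60669, 49932 and 44409.8 and 45452, 45213 and 49054. The list's median log2 fold change was -0.03, with 7 members fitted higher and 7 lower.

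Many blood cell markers were below the level needed for a test. Of the 12 Kupffer cell and macrophage genes 5 were tested, of 12 lymphocyte genes 5, of 8 neutrophil genes 2 and of 7 erythroid genes 5. The macrophage genes summed to 587, 490 and 575 in sub and 1526, 735 and 519 in high. Limma called none, with 1 at an unadjusted p under 0.05 (Csf1r, at 303, 0 and 31.9 in sub and 946, 723 and 519 in high, adjusted p 0.447). EdgeR called none of these genes and DESeq2 2. Adgre1, Vsig4, Timd4 and Lyz2 had means under 10. Limma also called none of 8 proliferation genes (0 at an unadjusted p under 0.05), 4 mesothelial genes (0), 14 BMP and ID genes (2), 17 WNT and R-spondin genes (3) and 12 mitochondrially encoded protein genes (0). EdgeR called Rspo3 alone among these, and DESeq2 2 WNT and R-spondin genes and 1 mitochondrial gene.

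Of 11 abundant nuclear and snoRNA-host long RNAs limma and edgeR called imprinted Meg3 alone, where 0.868% of all genes fell in limma. DESeq2 also called H19 lower (0.00104) and Snhg8 higher (0.007). Meg3 was at 1519.6, 1626 and 505 in sub with no read in high, at least 401-fold lower (adjusted p 0.0382), and lost the call in 8 of 12 fits (up to 0.12). Neat1, at 69414, 86261 and 65726 and 71539.6, 99812 and 86843, and Malat1 did not pass (adjusted p 0.653 and 0.476).

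The low gate placed the called genes on a scale. All 19 rises were also higher in low than in sub by means, and 13 were higher in high than in low, but only Atf3, Ccn1 and Chka had all 3 high libraries above all 3 low ones. The log2 fold changes of high over low were 0.72, 0.98 and 0.47 for these, with adjusted p of 0.794, 0.767 and 0.826 in the same fit. Limma called no gene between high and low and had 684 at an unadjusted p under 0.05, and no count test was run on that pair. Erbb4 and Gm43305 were at or above the level of high in low. The comparison of high with low shares the high libraries with that of high and sub, so the values stand side by side only.

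Gene models bear on some of the calls. Of the 159 called genes 158 matched 1 gene of GENCODE M21, and 151 were protein coding. In 7, 50% or more of the 31-base words were shared with other genes: Gvin1, Pde2a, Ccl21a, Gm48754, Gm12840, Hspa1b and Rpph1. Exons of 43 overlap an exon of a gene on the opposite strand, and whether strand was used in counting is not given in the sources used here. Of 13 called genes whose partner was summed with them, the summed pair kept the gates apart in 12, Rplp0 being the exception.

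**Figure D5:**
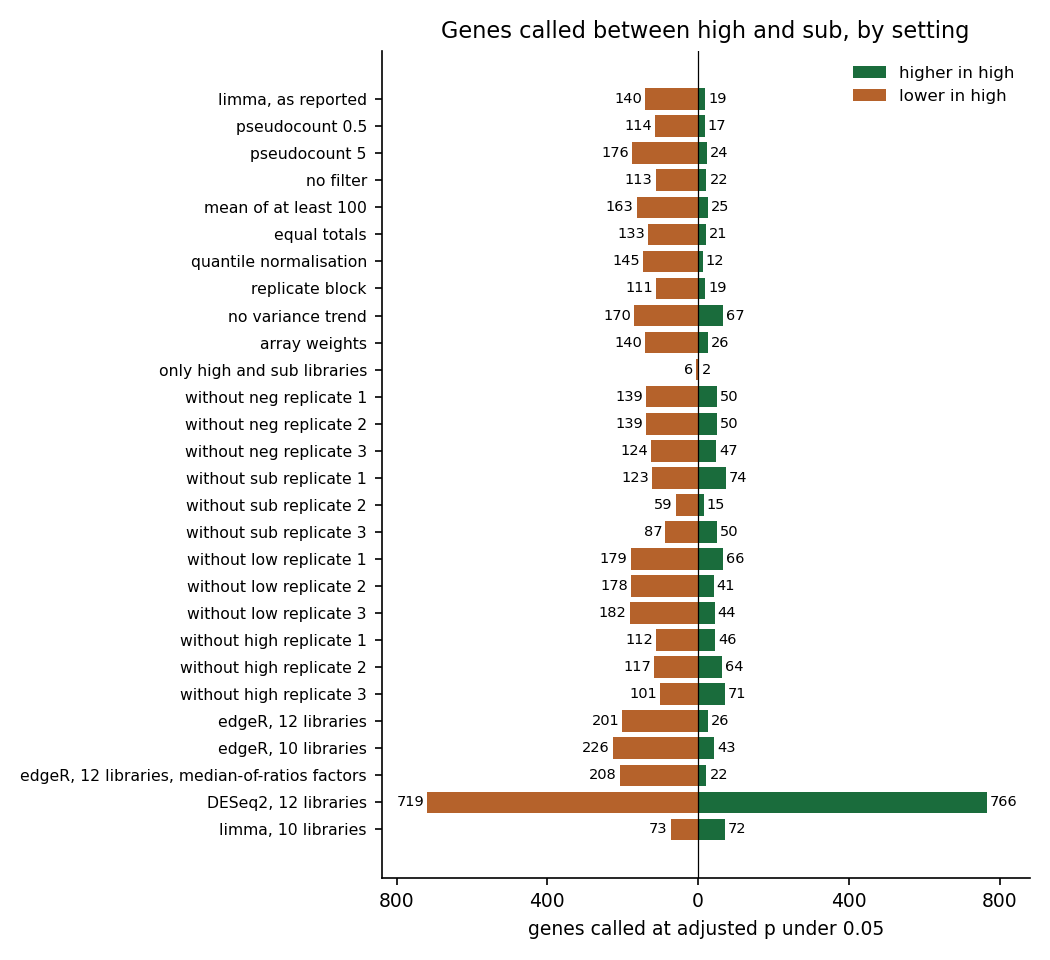
Number of genes called at an adjusted p under 0.05, lower in high to the left and higher in high to the right, under each setting; all settings share the axis. Falls outnumber rises in every limma and edgeR fit on 12 libraries, whereas DESeq2 calls 719 falls and 766 rises, and the limma fit of the 6 high and sub libraries alone calls 8 genes.

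How many genes were called depended on the fit. The fit of the 6 high and sub libraries alone called 8 genes, 6 of them among the 140 falls (Gvin1, Igfbp3, Mmrn1, Col3a1, Ccdc80 and Igfbp4). It called none of the 19 rises. The fit without sub replicate 2 called 15 genes higher and 59 lower, of which 10 and 44 were among the 159, and the fit without low replicate 1 called 66 and 179. Over all 12 such fits, 53 of the 159 genes were called every time, 9 of the rises and 44 of the falls. The 44 falls include Gucy1b1, Foxf1 and Col28a1, which passed the filter through sub alone. Of these 53, 47 were also called by both count tests: Atf3, Chka, Gm43305, Phf10, Tab3 and Usp1 among the rises and 41 falls. Of these rises, Tab3 lost its call with replicate number as a block. No called gene changed sign in any setting. The summed pan-endothelial, stellate and collagen levels differed 45.3-fold, 21.4-fold and 8.74-fold between the gates in the same libraries, and the part of cell mixture in the single-gene results was not tested.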

How the data were processed

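Total RNA libraries of sorted cells were made using SMARTer Stranded Total RNA Pico v2 reagents, per the labels' protocols. The submitters' processing notes name Salmon, DESeq2 1.26.0 and mm10, without roles. The deposited table gives a signal per gene: normalised counts by the authors, whose steps (0.691 to 1.22 per read) gave whole reads for 100% of values within a tolerance of 0.01. Depth was taken from these reads. Fits on 10 libraries kept only those marked as having whole reads recovered, although all 12 met this tolerance. Genes with a mean of at least 10 were tested on log2(normalised count + 1) with limma 3.58.1 (R 4.3.3), all 12 libraries, gate as the only term, a variance trend, two-sided moderated tests and Benjamini-Hochberg adjustment at 0.05. EdgeR 4.0.16 and DESeq2 1.42.0 on recovered reads were alternatives (edgeR called 227 genes and DESeq2 1485 with 12 libraries), as were pseudocounts, filters, scalings, fewer libraries and leaving out each library. The code was tested on simulated data: limma recovered nearly all planted rises at a low, uniform spread but none at the spread estimated from these libraries, so real changes of that kind can go uncalled.

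Named genes were defining genes, up to 15 rises and 15 falls of largest change with a mean of at least 100, and called list members. Others were chosen after their values were seen. Members and lists were chosen with earlier results of these data known. Gene models came from GENCODE M21 and promoters from RefSeq. Group assignment followed the labels. A few genes are not reported here.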

Additional observations from a re-analysis of the deposited data

How the results depend on the processing

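No called gene changed direction under the alternatives run, but the number called moved. Against 159 genes (19 higher, 140 lower), the fit of the 6 high and sub libraries called 8 (2 and 6), edgeR on 10 libraries 269 (43 and 226) and DESeq2 1485 (766 and 719). The 8 held 6 of the 159 calls (0 higher, 6 lower). Quantile normalisation, which moved the median log2 fold change of all genes from 0.20 to 0.04, called 12 higher. A fit without a variance trend called 67 higher and kept 94 of the 159 calls (7 higher, 87 lower). Limma on 10 libraries, added after seeing the data, called 72 higher and 73 lower and kept 53 of the 159 (7 higher, 46 lower). Leaving out 1 library gave 74 to 245 genes, 15 to 74 higher and 59 to 182 lower; without sub replicate 2 the count was lowest. Hnf4a, not called, reversed to -0.13 with edgeR on 10 libraries and -0.070 with limma on 10 libraries. The cause was not tested. The replicate block called 130 genes (19 higher, 111 lower), of which 120 were among the 159 (15 higher, 105 lower); the rises it lost were Erbb4, Lnx2, Marchf8 and Tab3. Libraries of one replicate number share a tag across gates in the labels, which do not say what it marks. Same-numbered deviations correlated at 0.012, 0.011 and 0.0047, so the numbers were not treated as pairing samples, and a shared animal was not tested; high replicates 1 and 2 correlated best with their own number and high replicate 3 with sub replicate 2. The median standard error was 2.35 on the log2 scale, and the part of depth in it was not tested.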
